A study of Saccharomyces cerevisiae with 8 samples.

Results

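The cytosolic ribosomal proteins of the small subunit in Saccharomyces cerevisiae were described here through the transcripts of their genes. The genes were chosen by name alone, as every row whose standard gene name is RPS followed by a digit, and 56 of the 7126 rows of the expression table qualified. They encode 32 proteins, of which 24 come from an A and a B gene copy (48 genes) and 8 from a single gene (among them RPS2, RPS3, RPS12, RPS13, RPS15, RPS20 and RPS31). The study set a pair of forms of Gcr1, an activator of glycolytic genes that works with Rap1, against each other. The groups were the Gcr1(S) strain at 12 h, the Gcr1(U) strain at 12 h, the Gcr1(S) strain at 6 h and the Gcr1(U) strain at 6 h, with 2 libraries each and 8 in all. Both strains are derivatives of BY4741, a MATa laboratory strain with deletions in HIS3, LEU2, MET17 and URA3. The labels name S as JHY9200 with GCR1 positions 4 to 742 deleted, and U as JHY9100 with positions 1 to 574 deleted. The labels do not say whether bases or residues are meant, and no strain with intact GCR1 is among the samples. Cultures grew untreated in YPD with 2% glucose at 30 °C; the labels assign 6 h to exponential phase and 12 h to the time after the diauxic shift. Separate cultures are not stated for the 2 libraries of a group, so a p-value measures only the spread between these libraries. The design implies 5 comparisons: S against U at each time, 12 h against 6 h in each strain, and the difference between the time changes of the strains.

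The small subunit binds mRNA, scans for the start codon and holds the decoding centre where codons are read. Its proteins assemble on the small ribosomal RNA in the nucleolus and cytoplasm, and yeast makes their mRNAs at very high rates while it grows on glucose. Most of these genes are activated through Rap1 together with Fhl1, Ifh1 and Sfp1, which respond to the TOR and protein kinase A pathways, and their transcription is known to fall when glucose runs out. Many of the genes exist as a pair of copies left from the ancient genome duplication, and in yeast ribosomal protein genes carry introns far more often than other genes do.

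Sequences upstream of 3 pairs are shown because RPS22 and RPS26 had the strongest shifts between their copies and the RPS30 copies fell least. Each line holds the 300 bases from 500 to 201 bases before the start codon on the coding strand, read from the R64 assembly (sacCer3) at chrX:75503-75802 on the minus strand for RPS22A, chrXII:855942-856241 on the plus strand for RPS22B, chrVII:148789-149088 on the minus strand for RPS26A, chrV:423452-423751 on the plus strand for RPS26B, chrXII:713359-713658 on the minus strand for RPS30A and chrXV:678994-679293 on the minus strand for RPS30B. Capitals mark matches on either strand to the Rap1 motif CCNTACAT or to the Gcr1 motif CTTCC, and the capitals that open the RPS30A line are the end of a CTTCC match that starts before the window.
RPS22A: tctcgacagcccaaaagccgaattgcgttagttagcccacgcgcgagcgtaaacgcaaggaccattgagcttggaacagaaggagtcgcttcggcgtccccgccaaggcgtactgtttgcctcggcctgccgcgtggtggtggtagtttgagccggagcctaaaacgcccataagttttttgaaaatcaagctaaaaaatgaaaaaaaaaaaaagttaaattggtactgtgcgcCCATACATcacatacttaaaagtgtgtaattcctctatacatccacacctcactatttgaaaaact
RPS22B: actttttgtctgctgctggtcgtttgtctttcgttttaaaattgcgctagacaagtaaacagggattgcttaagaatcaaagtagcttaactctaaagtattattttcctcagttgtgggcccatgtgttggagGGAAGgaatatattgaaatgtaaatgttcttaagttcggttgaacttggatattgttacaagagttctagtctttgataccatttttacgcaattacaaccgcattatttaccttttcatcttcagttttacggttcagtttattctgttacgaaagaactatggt
RPS26A: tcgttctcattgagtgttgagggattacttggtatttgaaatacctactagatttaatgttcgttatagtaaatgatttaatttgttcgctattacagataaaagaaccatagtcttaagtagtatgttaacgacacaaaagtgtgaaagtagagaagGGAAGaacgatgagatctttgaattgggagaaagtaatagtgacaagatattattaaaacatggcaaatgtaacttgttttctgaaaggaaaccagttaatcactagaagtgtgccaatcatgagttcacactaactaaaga
RPS26B: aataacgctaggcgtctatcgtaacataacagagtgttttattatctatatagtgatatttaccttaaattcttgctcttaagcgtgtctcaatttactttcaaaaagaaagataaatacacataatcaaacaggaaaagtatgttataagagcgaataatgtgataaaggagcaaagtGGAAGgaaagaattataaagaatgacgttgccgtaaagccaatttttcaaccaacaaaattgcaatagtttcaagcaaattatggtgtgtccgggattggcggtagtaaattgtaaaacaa
RPS30A: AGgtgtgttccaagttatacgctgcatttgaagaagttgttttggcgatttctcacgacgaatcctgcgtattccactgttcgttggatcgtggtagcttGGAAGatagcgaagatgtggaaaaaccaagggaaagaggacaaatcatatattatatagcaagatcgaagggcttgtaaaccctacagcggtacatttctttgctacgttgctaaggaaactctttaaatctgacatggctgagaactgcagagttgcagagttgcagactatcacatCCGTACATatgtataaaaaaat
RPS30B: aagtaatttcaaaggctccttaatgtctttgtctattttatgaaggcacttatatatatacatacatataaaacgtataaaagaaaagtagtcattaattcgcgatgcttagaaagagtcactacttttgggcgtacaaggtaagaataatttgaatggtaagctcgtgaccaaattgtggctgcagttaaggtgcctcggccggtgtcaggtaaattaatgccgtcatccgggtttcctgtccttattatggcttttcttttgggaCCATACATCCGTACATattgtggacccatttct

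RPS22A has 1 Rap1 match in this window and RPS22B has none, while the RPS26 copies have a CTTCC match each and no Rap1 match. RPS30A has 1 Rap1 match and RPS30B has 2 that lie side by side. Over the 600 bases before the start codon, 25 of the 56 RPS genes (44.6%) held CCNTACAT, against 6.6% of 6018 gene promoters of the same length. The share was alike in the genes of large subunit ribosomal proteins, at 36 of 76 (47.4%). The matches in the RPS genes numbered 32, with a median distance of 321 bases from the start codon, and 31 of them lay 200 to 500 bases away. CTTCC, the short core of the Gcr1 site, was in 47 of the 56 (83.9%) and in 72.7% of all 6018, and TTAGGG, the Tbf1 motif, was in 3 of the 56 and in 14.6% of all. A match of these letters describes the sequence and does not show binding.

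The libraries had summed FPKM between 1504396 and 1548312; FPKM, fragment counts scaled to transcript length and library size, relates a transcript to its length and to the library, so total mRNA per cell was not measured and less RNA of a gene per cell cannot be told apart from more of all others. LEU2, MET17 and URA3 were listed at 0 in all 8 libraries. HIS3 had 68.8 to 283 FPKM in the 8 libraries; the HIS3 deletion of BY4741 is known to remove only part of the gene. STE2, the receptor of MATa cells, averaged 979 to 1056 FPKM at 6 h, against 3.32 to 4.04 FPKM for STE3, the receptor of MATalpha cells. GCR1 had 104 and 89.0 FPKM in S and 30.2 and 32.9 FPKM in U at 12 h, and 143 and 58.9 FPKM in S and 60.9 and 40.2 FPKM in U at 6 h. The replicates of the 6 h groups stood apart in heat shock factor targets, whose median was 2.20 (S) and 2.22 (U) log2 units higher in replicate 1 than in replicate 2. The RPS genes differed between the same libraries by medians of -0.20 and 0.07. At 12 h the RPS genes were lower in replicate 1 than in replicate 2, for 54 of 56 genes in S (median -0.35) and for 55 of 56 in U (median -0.69). Over all 6339 tested rows, 3324 were lower in replicate 1 in S (median -0.02) and 3567 in U (median -0.05). The genes of large subunit ribosomal proteins had medians of -0.31 in S and -0.67 in U.

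All 56 RPS transcripts fell after the diauxic shift in both strains. Together they made up 1.92% and 2.37% of summed FPKM in the S libraries at 12 h, against 14.7% and 16.4% in the S libraries at 6 h. In U the shares were 1.85% and 2.75% at 12 h, against 15.5% and 15.0% at 6 h. No RPS gene was listed at 0 in any library, and the lowest single value was 34.4 FPKM, of RPS9A in U at 12 h. Of the 100 rows with the highest mean, RPS genes held 2 at 12 h and 33 at 6 h in S, and 2 at 12 h and 34 at 6 h in U.

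The fall passed the test for 56 of 56 genes in S and in U (limma on log2(FPKM + 1), adjusted over all 6339 tested rows, called at an adjusted p under 0.05). Of all tested rows, 22.9% were called lower at 12 h in S and 21.7% in U. The 12 h and 6 h libraries did not overlap for any of the 56, which was so in the lower direction for 32.8% of tested rows in S and 31.9% in U. The median log2 change was -3.15 in S and -2.96 in U, an 8.89-fold and a 7.81-fold fall, while the median over all tested rows was 0.23 in S and 0.26 in U. Under median-of-ratios scaling the RPS medians were -3.37 in S and -3.22 in U. A fall of 8-fold or more was fitted for 34 genes in S and 26 in U. Single changes ran from -4.90 to -1.59 in S and from -4.83 to -1.50 in U.

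**Figure D1:**
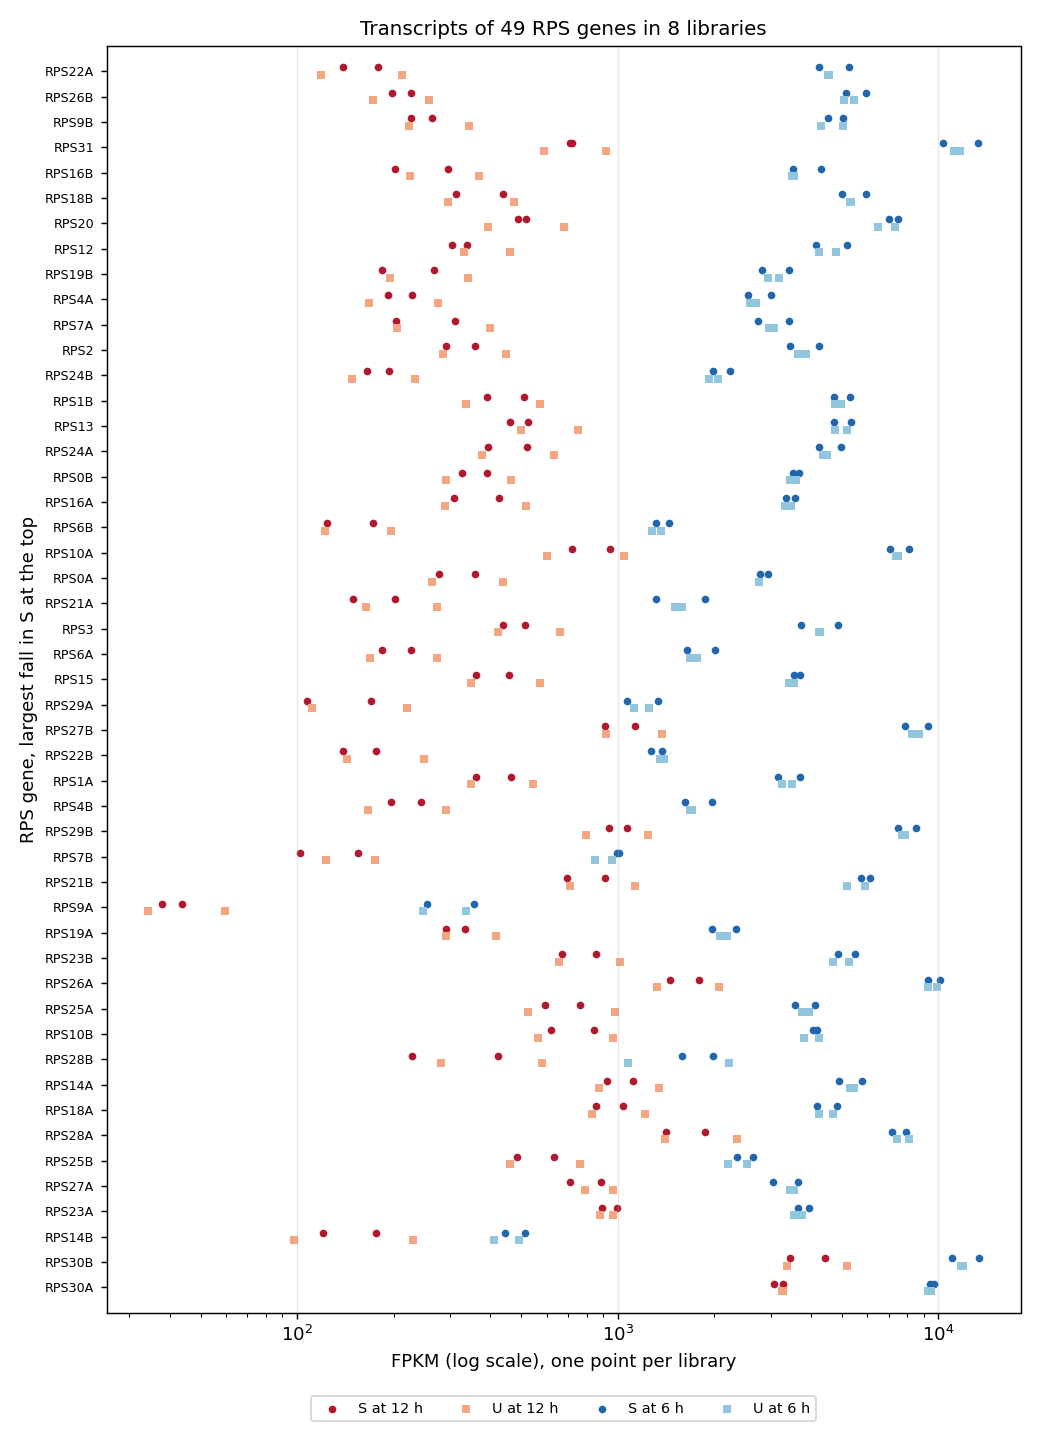
FPKM of 49 RPS genes (one row per gene, sorted by the log2 change in S) on a log axis, with one point per library: dark and light red for S and U at 12 h, dark and light blue for S and U at 6 h. The red points lie left of the blue points in every row, farthest for RPS22A (log2 change -4.90 in S) and least for RPS30A (-1.59).

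RPS22A, which encodes a protein of the subunit body, had 139 and 179 FPKM in S at 12 h, against 4249.6 and 5281 FPKM in S at 6 h. In U it had 119 and 212 FPKM at 12 h, against 4565 and 4513 FPKM at 6 h. It showed the lowest change of the 56 in both strains, -4.90 ± 0.30 in S (SE; limma adjusted p = 0.000135) and -4.83 ± 0.30 in U (adjusted p = 0.000131). RPS26B encodes 1 of the copies of Rps26, which lines the path on which mRNA leaves the subunit. Its values were 198 and 226 FPKM in S at 12 h, against 5140.0 and 5939 FPKM in S at 6 h, and 172 and 257 FPKM in U at 12 h, against 5074 and 5444 FPKM in U at 6 h. The change was -4.70 ± 0.23 in S and -4.64 ± 0.23 in U (limma adjusted p = 6.66e-05 and 6.38e-05). Every 12 h library of both genes lay far below every 6 h library.

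RPS9B, the main gene for Rps9 of the mRNA entry region, had 227 and 263 FPKM in S at 12 h, against 4529 and 5029 FPKM in S at 6 h. In U the gene had 223 and 344 FPKM at 12 h, against 5028 and 4311 FPKM at 6 h. Its log2 change was -4.28 ± 0.24 in S and -4.07 ± 0.24 in U (limma adjusted p = 0.000107 and 0.000117). RPS31, whose product is made as a fusion with ubiquitin, had 710.05 and 722 FPKM in S at 12 h, against 10349 and 13274 FPKM in S at 6 h. The U libraries gave 587 and 922 FPKM at 12 h, against 11657 and 11229 FPKM at 6 h. It was among the 5 lowest changes of both strains, with -4.03 ± 0.25 in S and -3.96 ± 0.25 in U (limma adjusted p = 0.000139 and 0.000143).

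At the other end stood both RPS30 copies, which encode the same small protein near the decoding site. RPS30A had 3282 and 3062 FPKM in S at 12 h, against 9682 and 9451 FPKM in S at 6 h, and 3283 and 3260.1 FPKM in U at 12 h, against 9294 and 9459 FPKM in U at 6 h. Its change of -1.59 ± 0.15 in S and -1.52 ± 0.15 in U (limma adjusted p = 0.000436 and 0.000533) was close to that of RPS30B. RPS30B had 3459 and 4419 FPKM in S at 12 h, against 10995 and 13392 FPKM in S at 6 h, and its change was -1.63 ± 0.26 in S (limma adjusted p = 0.00298) and -1.50 ± 0.26 in U (adjusted p = 0.00413). RPS30B was the highest and RPS9A the lowest of the 56 genes in each of the 8 libraries.

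RPS14B, the minor gene for Rps14 of the platform, whose protein is known to limit the splicing of this transcript, had 121 and 176 FPKM in S at 12 h, against 515 and 444 FPKM in S at 6 h. In U it had 97.7 and 230.0 FPKM at 12 h, against 494 and 411 FPKM at 6 h. Its change was -1.71 ± 0.41 in S and -1.58 ± 0.41 in U (limma adjusted p = 0.0132 and 0.0177). The call was lost in S without S replicate 1 at 12 h (adjusted p = 0.0806), and in U without U replicate 1 at 12 h (0.0545), U replicate 1 at 6 h (0.0731) or U replicate 2 at 6 h (0.0546). RPS23A and RPS23B encode the same protein of the decoding centre, and RPS23A stood at 993 and 894 FPKM in S at 12 h, against 3640.0 and 3947 FPKM in S at 6 h. It changed by -2.01 ± 0.16 in S and -1.98 ± 0.16 in U (limma adjusted p = 0.000241 and 0.000259). RPS27A changed by -2.06 ± 0.20 in S and -1.99 ± 0.20 in U (limma adjusted p = 0.00046 and 0.000555). RPS28B, whose own protein is known to bring about decay of its mRNA through Edc3, had the widest spread: 229 and 425 FPKM in S at 12 h, against 1987 and 1585 FPKM in S at 6 h, and 282 and 579 FPKM in U at 12 h, against 2217 and 1079.9 FPKM in U at 6 h. Its change was -2.51 ± 0.51 in S and -1.93 ± 0.51 in U (limma adjusted p = 0.00724 and 0.0187), and the call in U was lost without U replicate 1 at 12 h (adjusted p = 0.104) or without U replicate 1 at 6 h (0.0845). The other 54 genes kept their call in both strains whichever library was left out.

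Between these ends lay most of the genes. RPS6A and RPS6B encode the same protein, which is phosphorylated on the TOR pathway through Ypk3. RPS6A had 184 and 227 FPKM in S at 12 h, against 1650.4 and 2018 FPKM in S at 6 h. RPS6B had 124 and 172 FPKM in S at 12 h, against 1314 and 1441 FPKM in S at 6 h. Their log2 changes were -3.15 ± 0.26 in S and -3.0 ± 0.26 in U for A, and -3.23 ± 0.27 in S and -3.09 ± 0.27 in U for B, close to the median of all 56. RPS1B, of the platform, had 390.3 and 509.7 FPKM in S at 12 h, against 4725 and 5285 FPKM in S at 6 h (log2 change -3.48 ± 0.28 in S and -3.47 ± 0.28 in U). RPS1A had 361 and 465 FPKM in S at 12 h, against 3151 and 3707 FPKM in S at 6 h (log2 change -3.06 ± 0.26 in S and -2.95 ± 0.26 in U). RPS1B was thus the more abundant of this pair in S at both times. RPS0A and RPS0B, whose proteins are needed late in subunit maturation, had log2 changes of -3.18 ± 0.27 in S and -3.02 ± 0.27 in U for A, and -3.33 ± 0.24 in S and -3.26 ± 0.24 in U for B. RPS3, of the mRNA entry channel, had 440.2 and 513 FPKM in S at 12 h, against 3731 and 4872 FPKM in S at 6 h (log2 change -3.16 ± 0.26 in S and -3.01 ± 0.26 in U). RPS3 has no second copy. RPS10A, of the head, was among the most abundant at 6 h, with 719.9 and 947 FPKM in S at 12 h, against 7056 and 8101 FPKM in S at 6 h (log2 change -3.19 ± 0.29 in S and -3.22 ± 0.29 in U). RPS29A and RPS29B, which encode a small zinc-binding protein of the head, differed widely in level. RPS29A had 108 and 170.3 FPKM in S at 12 h, against 1069.7 and 1331 FPKM in S at 6 h (log2 change -3.13 ± 0.37 in S and -2.91 ± 0.37 in U). RPS29B had 937 and 1073 FPKM in S at 12 h, against 7490.3 and 8489 FPKM in S at 6 h (log2 change -2.99 ± 0.24 in S and -2.97 ± 0.24 in U). The B copy was the higher one in every S library. RPS28A, the major copy beside RPS28B, had 1414 and 1866 FPKM in S at 12 h, against 7180.3 and 7907 FPKM in S at 6 h (log2 change -2.21 ± 0.28 in S and -2.09 ± 0.28 in U). In each of these genes the 12 h and 6 h libraries did not overlap, and each change passed the test in both strains (limma).

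The 8 genes without a second copy fell by more than the middle of the copies, with a median of -3.64 in S and -3.45 in U, against -3.06 in S and -2.92 in U over the 48 genes with one. All 8 lay between -4.03 and -3.15 in S. Among them are RPS31 and RPS20 of the head, RPS12 of the beak, RPS2 and RPS3 of the mRNA entry region, RPS13 of the body and RPS15 of the head. RPS20 had 488 and 516 FPKM in S at 12 h, against 7041 and 7485 FPKM in S at 6 h, a change of -3.85 ± 0.27 (limma adjusted p = 0.000176). RPS15 had 361 and 457 FPKM in S at 12 h, against 3537 and 3696 FPKM in S at 6 h, a change of -3.15 ± 0.26 (limma adjusted p = 0.000302). The medians of these classes are descriptions with no test. The 36 genes with an intron, of 256 to 551 bases, had a median change of -3.11 in S and -2.93 in U, and the 20 without one -3.16 in S and -2.99 in U. The 25 genes with CCNTACAT had -3.15 in S and -2.96 in U, and the 31 without it -3.13 in S and -2.97 in U.

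Summing the copies gives the mRNA for each protein. For the 28 proteins compared here, the sums at 12 h spread over 24.9-fold in S, between 286 FPKM for RPS9 and 7111 FPKM for RPS30, and over 22.9-fold in U. At 6 h they lay within 6.77-fold of each other in S, between 3212 FPKM for RPS6 and 21760 FPKM for RPS30, and within 6.96-fold in U. The SD of the log2 sums over these proteins was 1.09 at 12 h and 0.66 at 6 h in S, and 1.05 at 12 h and 0.67 at 6 h in U. As background, a small subunit holds these proteins in equal number. These ranges compare FPKM between genes and so rest on the scaling to transcript length. Both RPS30 genes have a coding length of 192 bases, against 594 for RPS9A and 588 for RPS9B. RPS30 averaged 7111 ± 523 FPKM in S at 12 h, against 21760 ± 1531 FPKM in S at 6 h (SD, n = 2), and RPS22 averaged 317 ± 54.2 FPKM in S at 12 h, against 6085 ± 802 FPKM in S at 6 h (SD, n = 2). RPS30, RPS28, RPS14, RPS25 and RPS23 had the smallest changes of the sums in S, between -2.39 and -1.61. RPS22, RPS9, RPS31, RPS12 and RPS20 had the lowest, between -4.27 and -3.86.

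**Figure D2:**
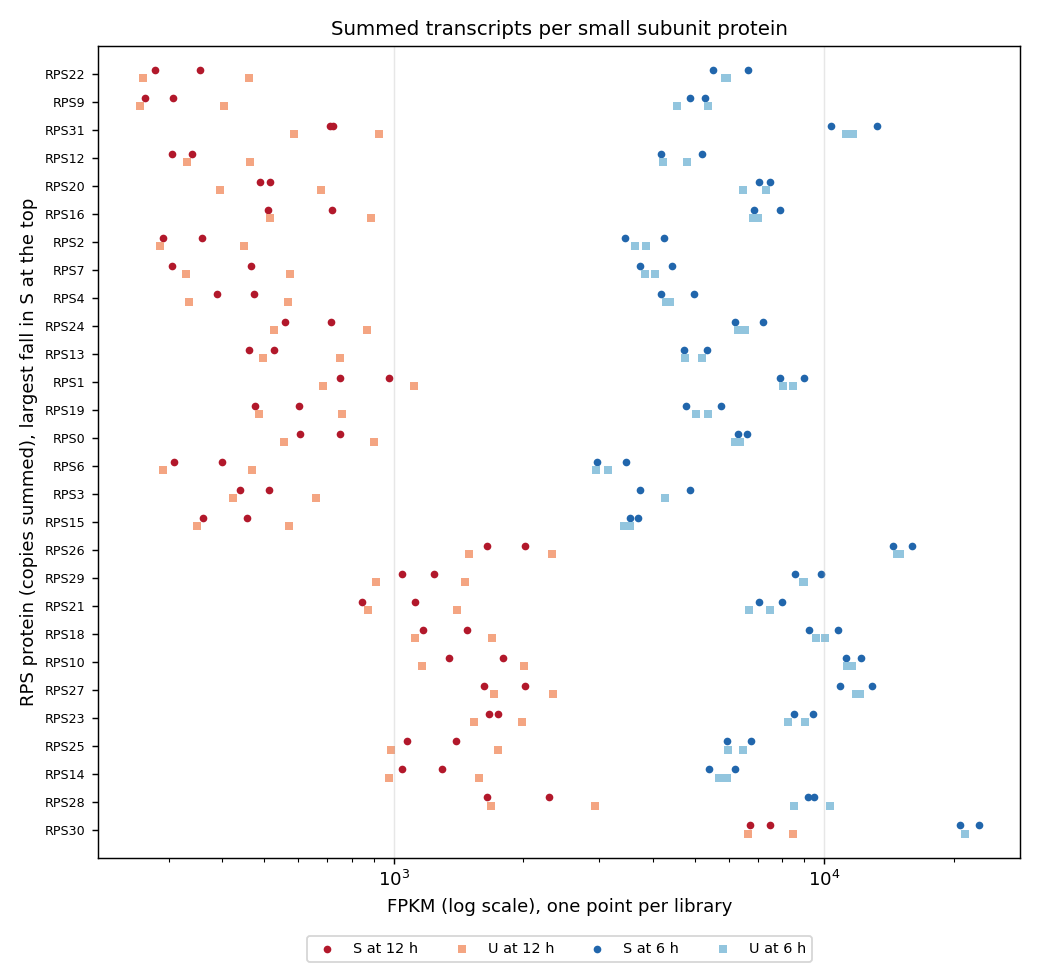
Summed FPKM of all gene copies for each of 28 small subunit proteins (rows, sorted by the log2 change in S) on a log axis, with one point per library; red is 12 h and blue is 6 h, dark circles are S and light squares U. The 12 h sums spread over a wider range (24.9-fold in S) than the 6 h sums (6.77-fold), with RPS30 highest in both.

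The balance between the copies of a pair shifted with time in 15 of 24 RPS pairs in S and in the same 15 in U, each with the same sign in both strains. The ratio of A to B rose in 9 and fell in 6 of them (limma on log2 of A over B, adjusted over all 59 pairs of A and B genes in the table). Over those 59 pairs, which include the RPS pairs, 61% were called in S and 64.4% in U, so the RPS share is near the background. By group means, 5 pairs in S had another more abundant copy at 12 h than at 6 h (RPS4, RPS16, RPS18, RPS19 and RPS23). In U there were 6, as RPS22 joined them. Some of these shares were near even. RPS4A held 49.6% and 48.4% in S and 50.2% and 48.5% in U at 12 h. RPS16A held 49.4% and 48.8% in U at 6 h, and RPS23A 57.4% and 48.8% in U at 12 h. For RPS4 and RPS23 in U, the 12 h libraries thus differed on which copy was higher. In 13 of the 15 called pairs of each strain, the copy that was lower at 6 h gained share at 12 h, while RPS26 was an exception. The 6 h values set which copy is lower and also enter the change, which favours such a count. It is a description with no test and no share over the 59 pairs beside it. Coding identity within the 24 pairs ran from 84.3% to 99.2% with a median of 92.7%, and 9 pairs encode the same protein, so reads may be assigned to the wrong copy and the split is least certain in those.

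RPS26 had the strongest shift towards A. RPS26A made up 88.0% and 88.8% of the pair's FPKM in S at 12 h, against 64.5% and 63.0% in S at 6 h, and 88.5% and 89.0% in U at 12 h, against 66.1% and 63.1% in U at 6 h. The log2 ratio of A to B changed by 2.11 ± 0.11 in S and 2.1 ± 0.11 in U (limma adjusted p = 3.69e-06 and 3.87e-06). RPS26A itself had 1452 and 1794 FPKM in S at 12 h, against 9319 and 10095 FPKM in S at 6 h, so that both copies fell and B fell further. The proteins differ by E106D and D113A (A first, numbered from the first methionine), and Tsr2 is known to bring Rps26 to the ribosome. RPS18, of the head, followed: RPS18A had 73.2% and 70.3% of the pair in S at 12 h, against 45.5% and 44.9% in S at 6 h, and 73.8% and 71.9% in U at 12 h, against 46.8% and 44.5% in U at 6 h. Its ratio changed by 1.62 ± 0.11 in S and 1.67 ± 0.11 in U (limma adjusted p = 1.54e-05 and 1.26e-05); the copies encode the same protein.

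RPS9A was the minor copy throughout, with 14.3% in each S library at 12 h, against 7.28% and 4.80% in S at 6 h, and 13.4% and 14.8% in U at 12 h, against 6.27% and 5.42% in U at 6 h. The ratio changed by 1.43 ± 0.20 in S and 1.42 ± 0.20 in U (limma adjusted p = 0.000583 and 0.000629); Rps9 is known to restrain the splicing of RPS9A. In RPS19, of the head, and RPS27, of the platform, the ratio changed in S by 1.03 ± 0.15 and 1.01 ± 0.12 (limma adjusted p = 0.000583 and 0.000245). The ratio rose by less in RPS1, RPS16 and RPS23, by 0.43, 0.74 and 0.76 in S.

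RPS22 had the strongest shift towards B. RPS22A held 50.0% and 50.3% of the pair in S at 12 h, against 77.0% and 79.4% in S at 6 h, and 45.4% and 46.1% in U at 12 h, against 76.6% and 76.9% in U at 6 h. Its ratio changed by -1.84 ± 0.10 in S and -1.97 ± 0.10 in U (limma adjusted p = 4.59e-06 and 3.87e-06). RPS22B is the only pair member that carries an intron while its partner has none. This intron of 483 bases hosts the small nucleolar RNA SNR44 on the same strand, and SNR44 overlaps no exon of RPS22B. Whether signal from SNR44 entered the RPS22B values, and its part in the ratio, was not tested. The proteins differ by I27L. The other falls of the ratio in S were -0.69 ± 0.09 for RPS4, -0.68 ± 0.12 for RPS10, -0.68 ± 0.24 for RPS14, -0.62 ± 0.17 for RPS7 and -0.34 ± 0.10 for RPS25 (limma adjusted p = 0.000505, 0.00145, 0.04, 0.0137 and 0.0204). Leaving out 1 library ended the call of RPS7, RPS14, RPS23 or RPS25 in S, leaving 11 pairs called in every such fit, and of RPS14, RPS23 or RPS25 in U, leaving 12; no called pair changed sign.

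**Figure D3:**
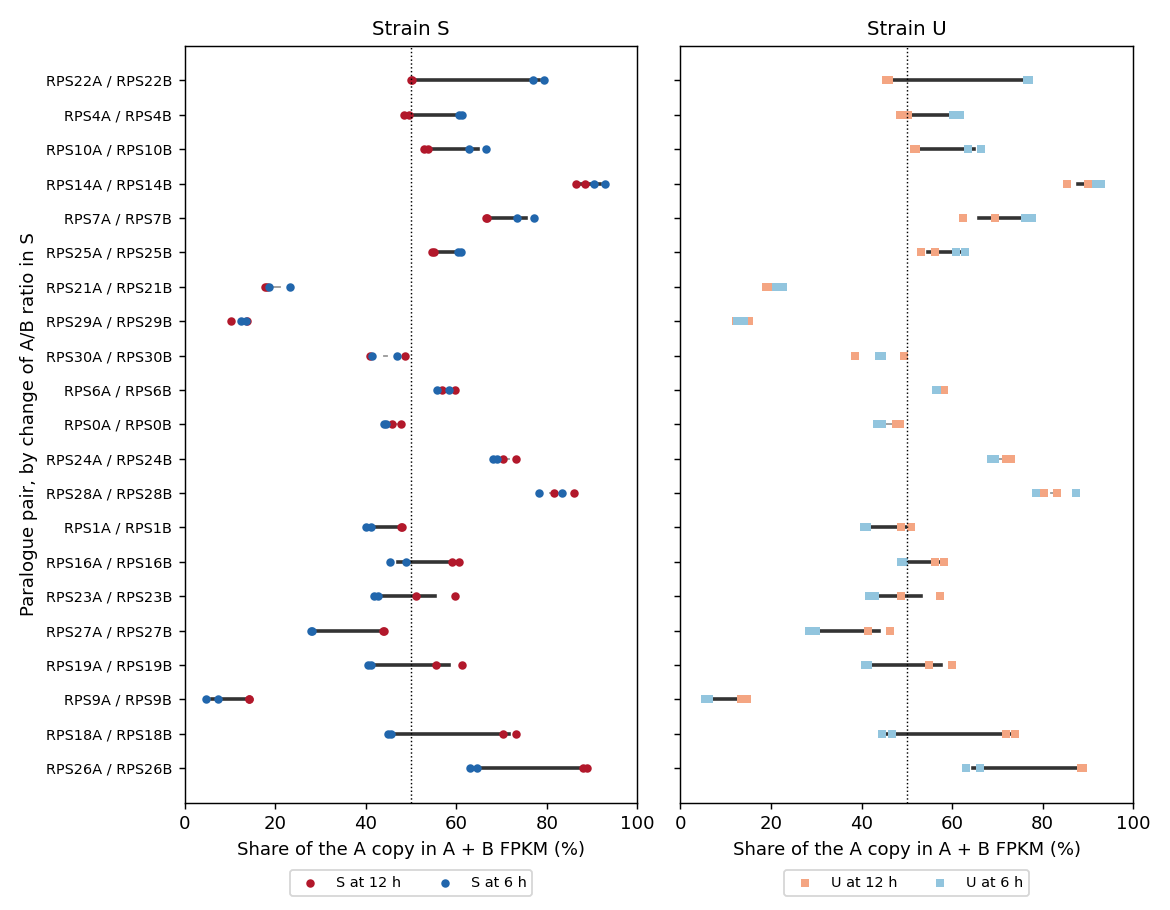
Share of the A copy in the summed FPKM of each of 21 pairs (percent, one point per library), with S in the left panel and U in the right; red is 12 h, blue is 6 h, the line joins the group means and is dark where the change of the A/B ratio was called. The widest gaps are those of RPS22 towards B and of RPS26 and RPS18 towards A.

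For 9 pairs the change of the ratio did not pass the test in either strain. They included RPS0, RPS6, RPS21, RPS24, RPS28, RPS29 and RPS30, with changes in S between -0.27 ± 0.14 (RPS21) and 0.29 ± 0.32 (RPS28) for those named. RPS30A held 44.8% in S at 12 h and 44.1% in S at 6 h, and the change was 0.04 ± 0.24 in S (limma adjusted p = 0.932). The most uneven pairs at 6 h were RPS9, RPS29 and RPS21, where A held 6.04%, 13.0% and 21.0% in S, and RPS14, RPS28 and RPS22, where A held 91.7%, 80.8% and 78.2% in S. The pairs with CCNTACAT upstream of both copies numbered 7, with it at neither copy 9, and at 1 copy 8. In 6 of these 8, in S and in U, the copy with the motif fell further, which is a count with no test. In each of the 8 the copy that was higher at 6 h fell further, and in the 6 this was the copy with the motif. In these 6 the motif and the 6 h level cannot be told apart. In RPS7 and RPS19 the motif was at the copy lower at 6 h (RPS7B and RPS19A), which fell less. Neither the motif nor the 6 h level was tested as a cause, and the 6 h values also enter the change. Across the 24 pairs, the changes of the ratio in S and in U had a Pearson r of 0.99 and a Spearman rho of 0.97, a description over pairs that share the 4 libraries of each strain.

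Between the strains no RPS gene passed the test at either time. At 12 h the median difference, S minus U, was -0.10 over the 56 genes, with 51 below 0, and at 6 h it was 0.04, with 51 above 0. The medians over all tested rows were -0.04 at 12 h and -0.0027 at 6 h. Of all tested rows 0.126% were called at 12 h and 0.0789% at 6 h, and 0 of the 56 RPS genes at each time (0 at an unadjusted p under 0.05 as well; limma). The S and U libraries overlapped for all 56 genes at 12 h and for 54 at 6 h, while 20.6% of all tested rows at 12 h and 10.7% at 6 h did not overlap. The SE of a single difference was 0.15 to 0.51 log2 units. The 12 h median turned positive without S replicate 1 (0.07) or without U replicate 2 (0.24) at 12 h. The 6 h median also changed sign, running from -0.06 to 0.13 without 1 library.

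Single genes at the ends of these ranges show the size of the error. RPS28B had 229 and 425 FPKM in S against 282 and 579 FPKM in U at 12 h, a difference of -0.37 ± 0.51 (limma adjusted p = 1), and 0.20 ± 0.51 at 6 h (adjusted p = 1). RPS13 had 462 and 526 FPKM in S and 498 and 751 FPKM in U at 12 h, and differed by -0.31 ± 0.23 (limma adjusted p = 1). RPS10A was at the upper end at 12 h with 0.06 ± 0.29, and RPS7B and RPS16B had 0.15 ± 0.26 and 0.14 ± 0.30 at 6 h (limma adjusted p = 1 for each). The lower end at 6 h was RPS27A with -0.07 ± 0.20 (limma adjusted p = 1). None of these differences passed the test, which does not show that the strains were alike.

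**Figure D4:**
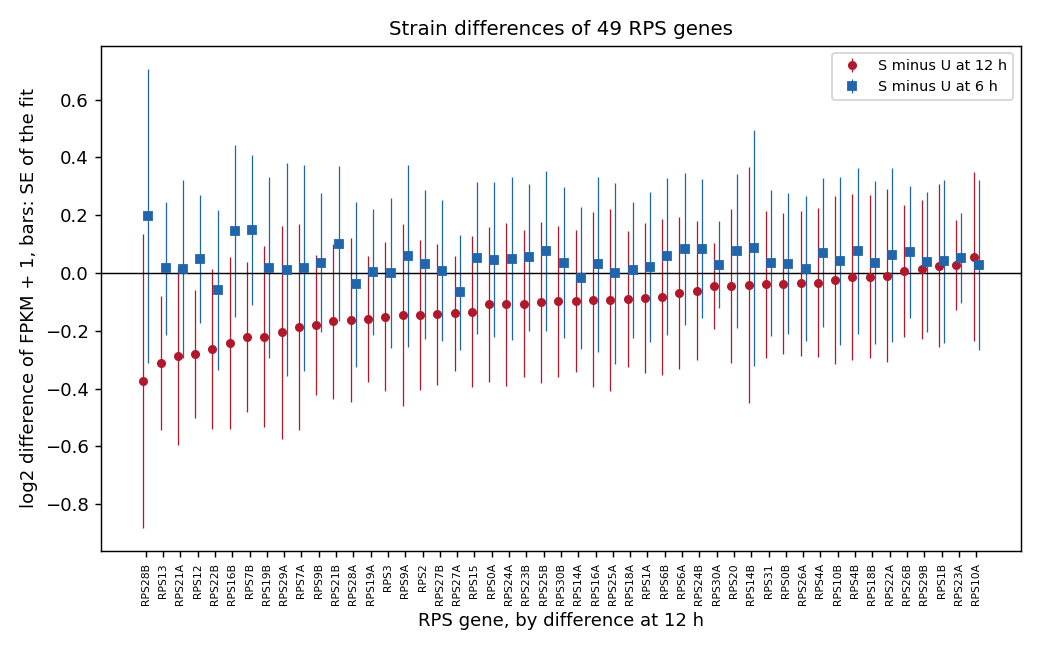
Difference of log2(FPKM + 1), S minus U, for each of 49 RPS genes at 12 h (red circles) and 6 h (blue squares), with the SE of the fit as bars, sorted by the 12 h difference. Values run from -0.37 to 0.06 at 12 h and from -0.07 to 0.20 at 6 h, and most bars cross 0.

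The time change was lower in S than in U for 55 of 56 genes, with a median difference of -0.15, yet it passed the test for 0 of the 56 (0 at an unadjusted p under 0.05; limma), where 0.0789% of all tested rows were called. Over all tested rows the median difference was -0.04. Of 73 tested genes of large subunit ribosomal proteins, 71 lay below 0 as well (median -0.16). The RPS median moved to -0.49 without U replicate 1 at 12 h and to 0.19 without U replicate 2 at 12 h. The widest single value was that of RPS28B, -0.57 ± 0.72 (limma adjusted p = 1). Across the 56 genes the changes in S and in U had a Pearson r of 0.989 and a Spearman rho of 0.987, over genes that share the 4 libraries of each strain. No RPS pair passed the test for its A/B ratio between the strains, at 12 h (1 at an unadjusted p under 0.05), at 6 h (0) or in the difference of the time changes (0; limma). RPS22 had the highest difference of the ratio at 12 h, 0.25 ± 0.10 (limma adjusted p = 0.978).

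The partners of these proteins were read from the same fit. Of 26 assembly factors of the small subunit, 23 were called lower at 12 h in S and 23 in U and 0 higher. Their medians were -1.50 and -1.37, a smaller fall than the RPS medians of -3.15 and -2.96. Of all tested rows, 22.9% in S and 21.7% in U were called lower. NOP1, which methylates pre-rRNA, had 86.6 and 62.7 FPKM in S at 12 h, against 617 and 1113 FPKM in S at 6 h. Its log2 change was -3.47 (limma adjusted p = 0.000541), and the export factor RRP12 changed by -2.59 (limma adjusted p = 0.00359). RRP12 had 94.2 and 198 FPKM in S at 6 h. Both genes were higher in replicate 2 than in replicate 1 at 6 h in each strain. A list of 8 chaperones and modifying enzymes held LTV1, which is also among the 26 assembly factors, and NAT4, which is known to acetylate histones. All but NAT4, 7 genes, were called lower in each strain. TSR2, the chaperone of Rps26, had 38.9 and 39.8 FPKM in S at 12 h, against 152 and 236 FPKM in S at 6 h (log2 change -2.24, limma adjusted p = 0.000552). TPA1, which hydroxylates Rps23, changed by -2.22 (limma adjusted p = 0.00117), and NAT4 by 0.68 in S (limma adjusted p = 0.169) and 1.09 in U (limma adjusted p = 0.0493).

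ASC1, the yeast RACK1 protein of the subunit head, is no RPS gene by name but moved at their size. It had 94.1 and 118 FPKM in S at 12 h, against 2472 and 3121 FPKM in S at 6 h, a log2 change of -4.70 ± 0.25 in S and -4.49 ± 0.25 in U (limma adjusted p = 8.84e-05 and 9.04e-05). Only 1 of the 56 RPS genes in S and 2 in U had a lower change. Of 9 proteins known on the subunit under other names, ASC1 included, 8 were lower in each strain, among them STM1, a factor of idle ribosomes (-2.78 in S, limma adjusted p = 0.000361), and the initiation factor gene SUI1 (-0.77 in S, limma adjusted p = 0.0173). LSO1, with 1.04 FPKM in S at 12 h and 4.53 FPKM in S at 6 h, did not pass. The share of all tested rows called lower was 22.9% in S and 21.7% in U.

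The ubiquitin genes split by their fusion. UBI4, which encodes ubiquitin alone in repeats, had 1119 and 1048 FPKM in S at 12 h, against 290.4 and 88.7 FPKM in S at 6 h, and rose by 2.75 in S and 2.65 in U on the log2 scale (limma adjusted p = 0.0103 and 0.0118). RPS31, RPL40A and RPL40B, which encode ubiquitin joined to a ribosomal protein, changed by -4.03, -2.78 and -3.30 in S. All 3 were called lower in both strains, as were 22.9% of all tested rows in S and 21.7% in U. Mean UBI4 was 1084 FPKM and mean RPS31 716 FPKM in S at 12 h; at 6 h they were 190.0 and 11812 FPKM in S.

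Regulators of the ribosomal protein genes moved in both directions: of 22, 4 were called higher and 5 lower in S, and 6 higher and 4 lower in U. Of all tested rows, 33.2% in S and 33.5% in U were called higher, and 22.9% in S and 21.7% in U lower. The regulators' counts do not exceed these shares in either direction. CRF1, a corepressor that competes with Ifh1, rose by 1.96 in S and 1.84 in U (limma adjusted p = 0.000669 and 0.000851), to means of 51.0 FPKM in S at 12 h, against 12.2 FPKM in S at 6 h. RAP1 changed by -0.88 in S and -0.80 in U (limma adjusted p = 0.0122 and 0.0175), and TPK3, a catalytic subunit of protein kinase A, by -0.93 in S (limma adjusted p = 0.00211). TPK2, another such subunit, went the other way, by 1.90 in S and 1.76 in U (limma adjusted p = 0.0344 and 0.0442). Its replicates in S at 6 h differed, with 107 and 30.2 FPKM. SFP1 changed by 0.32 in S and 0.40 in U (limma adjusted p = 0.0625 and 0.0312). IFH1 changed by -1.13 in S (limma adjusted p = 0.0403) and by -0.93 in U (limma adjusted p = 0.0731), and these changes were not shown to differ. FHL1 did not pass the test, at -0.36 in S and -0.26 in U (limma adjusted p = 0.201 and 0.336).

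The ribosomal proteins of the large subunit showed a like size of change, with medians of -3.23 in S and -3.02 in U. Among 73 tested genes 72 were called lower in S and 71 in U, against 22.9% and 21.7% of all tested rows. The 33 proteins of the mitochondrial small subunit differed in direction, with 30 higher in S and 31 in U, 0 lower in either, and medians of 0.83 and 0.84; the shares of all tested rows called higher were 33.2% and 33.5%. In none of these lists of partners, regulators and other ribosomal proteins did a gene pass the test between the strains at 12 h or at 6 h.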

How the data were processed

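mRNA of the yeast samples was sequenced in 8 libraries, 2 libraries in each of 4 groups. The authors deposited FPKM, 1 value per gene and library, in a single table. Per the submitters' processing notes, the build was sacCer3 and the tools were Cufflinks, TopHat2 2.1.1, FastQC 0.10.1 and bcl2fastq 1.8.2, with the Cufflinks version and gene annotation not given in the sources used here. Strand was kept by the library kit, per the labels' protocols. No counts are in the table, so the depth of each library is unknown and no counting error can be given. The 56 RPS genes were named by systematic identifier from the RefSeq annotation of R64, because 9 A genes carried the name of their B copy in the deposited table. Values were analysed as log2(FPKM + 1), over 6339 rows whose mean reached 1 FPKM, with limma 3.58.1 in R 4.3.3 (eBayes with trend, one fit to all 4 groups, 4 residual and 2.33 prior degrees of freedom, two-sided, Benjamini-Hochberg over all tested rows, called under 0.05). The pseudocount of 1 makes fold changes of low genes smaller. For the 59 pairs, log2 of A over B was fitted the same way without trend (4 residual and 3.08 prior degrees of freedom). Errors of changes are standard errors of the fit. The spread of each library group enters a shared estimate, since 2 libraries give too few degrees of freedom alone. Sequences, introns and motif matches were read with Biopython 1.88, and pandas 2.3.3 under Python 3.11.15 made the tables. The code was tested on simulated data. Genes given with full statistics were the 5 highest and 5 lowest changes over time, the 3 highest and 3 lowest between strains, the 4 pairs at each end of the ratio changes and of the 6 h ratios, and up to 3 genes of another list, called genes first; others are named for their role, after their values were seen. The members and the lists were chosen with earlier results of these data known. Alternatives were another pseudocount (0.1), filter (none, 10 FPKM), scaling, eBayes setting, replicate block, the groups compared alone and each library left out. Values of 7 of the 56 genes are not reported singly here; counts and medians cover all 56.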

Additional observations from a re-analysis of the deposited data

How the results depend on the processing

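The fall of the RPS genes with time kept its direction in every setting: 55 or 56 genes were called in S and 54 to 56 in U without 1 library, and 56 in both under all other settings. The S medians ran from -3.37 to -2.97 and the U medians from -3.33 to -2.64. Counts of called pairs lay between 11 and 18 in S and between 12 and 19 in U. The labels give the replicate numbers no meaning. Same-numbered S and U libraries deviated together within a time (correlation over genes 0.641 at 6 h and 0.375 at 12 h), and little across times (0.006 to 0.085). With a replicate block 56 genes were called in each strain, and 14 pairs in S and 16 in U; with a replicate block within time 18 and 19. Between the strains 0 genes were called in every setting. The median difference of the time changes was between -0.49 and 0.19 without 1 library. The median strain difference was then between -0.43 and 0.24 at 12 h and between -0.06 and 0.13 at 6 h. Single strain differences turned sign without 1 library: at 12 h RPS10A (-0.34 to 0.46), RPS1B (-0.36 to 0.41), RPS21A (-0.66 to 0.0805), RPS23A (-0.0495 to 0.10) and RPS28B (-0.89 to 0.15); at 6 h RPS16B (-0.0017 to 0.29), RPS27A (-0.20 to 0.0622), RPS28A (-0.11 to 0.0298) and RPS28B (-0.32 to 0.72); for the difference of time changes RPS10A (-0.37 to 0.43), RPS1B (-0.40 to 0.37) and RPS29B (-0.34 to 0.29). RPS22B at 6 h turned to 0.0241 under quantile normalization. The difference for RPS1B turned to 0.0191 under median-of-ratios scaling and 0.0721 under quantile normalization, and that for RPS29B to 0.009 and 0.0182. The cause was not tested. With 2 libraries per group and no counts, small strain differences cannot be resolved.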
